A study of Mus musculus with 4 samples.

Results

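Broad promoter domains are stretches of transcription initiation at or near a protein-coding start that hold a call in each of the 4 libraries of the series and that measured 3000 bp or more once the calls of the libraries were merged. They were selected on the peak positions themselves, so their width and their presence in all 4 libraries are a description and not a finding. Peaks that overlapped by at least 1 bp were joined across libraries, which gave 61095 merged regions, of which 15689 were called in each library. Regions were kept where a protein-coding transcript start of the mouse GENCODE release M21 lay within 500 bp. Those with starts of 2 protein-coding genes on opposite strands within 1000 bp of each other were set aside. This left 9858 shared promoter regions. The broad domains were the 1530 of them that reached 3000 bp, or 15.5%, and the 8328 narrower regions served for comparison. By gene, 1563 of the 9598 protein-coding genes with a shared promoter region had a start in or near a broad domain, or 16.3%.

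The 4 libraries are PRO-seq libraries of E14.5 mouse embryos, 2 from liver and 2 from yolk sac, each made from the tissue of 6 embryos. Mothers were C57BL/6J. Fathers were of a mixed C57BL/6J and CAST/EiJ background (written C57BL/6h and CAST/EiJ in the sample labels) and carried only CAST/EiJ sequence at the imprinted Dlk1/Gtl2 locus, so all 4 libraries share this cross, and no single-strain sample was analysed here. PRO-seq labels RNA that engaged polymerases are still making, and dREG is a classifier that reads such data and outlines stretches where polymerases start. Whole tissue was used, so fewer cells of a type and a narrower domain in each cell cannot be told apart.

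As background, polymerases start at most mammalian promoters in both directions from the edges of a nucleosome-depleted stretch. A run-on start call therefore usually spans a sense start and an antisense start a short way upstream. Promoters of cell identity factors, signal-responsive genes and chromatin regulators are known for long stretches of active chromatin, with several start clusters, intragenic enhancers or antisense transcripts close to the gene.

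The stretches just upstream of 6 domain starts are shown because they differ widely in CpG number and promoter letters although all lie inside a peak of every library. Each line gives the 150 bases before the RefSeq start of the named gene (GRCm38.p6, the build that mm10 denotes), 5′ to 3′ on the gene's own strand, with each CpG in capitals. Zmynd8, Zfp36l1 and Ptch1 lead the ranking by covered length described below among domains where this stretch overlaps no annotated exon and lies within the peaks of each library. Gadd45g, Runx1 and Cebpa are the first such members of the immediate early, blood and endoderm gene lists.
Zmynd8: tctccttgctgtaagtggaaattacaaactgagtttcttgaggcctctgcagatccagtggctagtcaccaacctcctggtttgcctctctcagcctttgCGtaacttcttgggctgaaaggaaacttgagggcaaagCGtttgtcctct
Zfp36l1: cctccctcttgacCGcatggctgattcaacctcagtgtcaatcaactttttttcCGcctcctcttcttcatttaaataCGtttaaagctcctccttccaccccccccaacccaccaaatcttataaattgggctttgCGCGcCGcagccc
Ptch1: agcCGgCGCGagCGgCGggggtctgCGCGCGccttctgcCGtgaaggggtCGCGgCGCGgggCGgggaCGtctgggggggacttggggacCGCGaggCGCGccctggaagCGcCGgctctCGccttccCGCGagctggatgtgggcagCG
Gadd45g: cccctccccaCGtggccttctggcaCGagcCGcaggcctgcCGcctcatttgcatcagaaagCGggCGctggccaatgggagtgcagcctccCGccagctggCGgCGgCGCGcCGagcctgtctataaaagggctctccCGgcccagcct
Runx1: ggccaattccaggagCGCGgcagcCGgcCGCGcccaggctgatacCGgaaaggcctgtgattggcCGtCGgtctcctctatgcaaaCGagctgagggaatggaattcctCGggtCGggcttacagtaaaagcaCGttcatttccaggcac
Cebpa: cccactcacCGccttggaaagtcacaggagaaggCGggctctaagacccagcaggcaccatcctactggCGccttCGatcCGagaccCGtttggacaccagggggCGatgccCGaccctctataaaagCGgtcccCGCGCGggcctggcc
The positions are chr2:165882279-165882428 on the minus strand for Zmynd8, chr12:80113014-80113163 on the minus strand for Zfp36l1 and chr13:63565736-63565885 on the minus strand for Ptch1. They are chr13:51846525-51846674 on the plus strand for Gadd45g, chr16:92697330-92697479 on the minus strand for Runx1 and chr7:35119143-35119292 on the plus strand for Cebpa. The RefSeq start lay within 3 bp of the reference start used here in all 6. The starts of Zmynd8, Ptch1 and Runx1 are internal, since the annotated gene begins further upstream. CpG numbers ran from 2 at Zmynd8 and 6 at Zfp36l1 through 12 at Runx1, 12 at Cebpa and 13 at Gadd45g to 25 at Ptch1, against a median of 4 over 32851 RefSeq windows of the same length. The letters TATAAA occurred in Zfp36l1, Gadd45g and Cebpa, with their first base 29, 27 and 30 bases before the start, and in 7.57% of all windows on either strand. CCAAT occurred in Zfp36l1, Gadd45g and Runx1 and in 24.5% of all windows, and GGGCGG in Ptch1 and in 28.6%. TGACGTCA and CCGGAAG, which 1.36% and 5.52% of windows hold, were in none of the 6 stretches. The motifs were searched on both strands and are matches of letters only. At Zfp36l1 the CCAAT match is on the opposite strand and shares a letter with TATAAA. The 6 promoters thus included CpG-rich and CpG-poor stretches, with and without TATAAA.

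The merged width of the domains had a median of 3552 bp, with quartiles of 3202 and 4202 bp and a maximum of 9652 bp. Of the 1530 domains, 495 reached 4000 bp (32.4%), 143 reached 5000 bp and 50 reached 6000 bp. Peak edges lay on a grid of 50 bp, so Mamld1, Plg and Fzd2 at 3002 bp were just inside the limit, and Adamts13, Adra1d and Aff1 at 2952 bp just outside it. The width of each domain was then read library by library as its covered length, the base pairs inside peaks of that library.

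The covered length of the domains had a median of 2952 bp in liver replicate 1, 2654 bp in liver replicate 2, 3202 bp in yolk sac replicate 1 and 2902 bp in yolk sac replicate 2. Replicate 1 was thus the wider library in each tissue, and the ranges of the tissues overlapped. The number of domains covered over 3000 bp or more was 735 and 515 in the liver libraries and 1027 and 694 in the yolk sac libraries, which gave means of 625 ± 156 (liver) and 860.5 ± 235 (yolk sac) domains (SD, n = 2). The values of the tissues overlapped, and the difference of 235.5 domains gave an exact two-sided permutation p of 0.667 over the 6 assignments, of which the smallest possible is 0.333. The 4 lists held 24863, 24333, 50525 and 43055 peaks with scores from 0.80 to 1.45. They hold no read counts, so the depth behind a width is unknown.

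**Figure D1:**
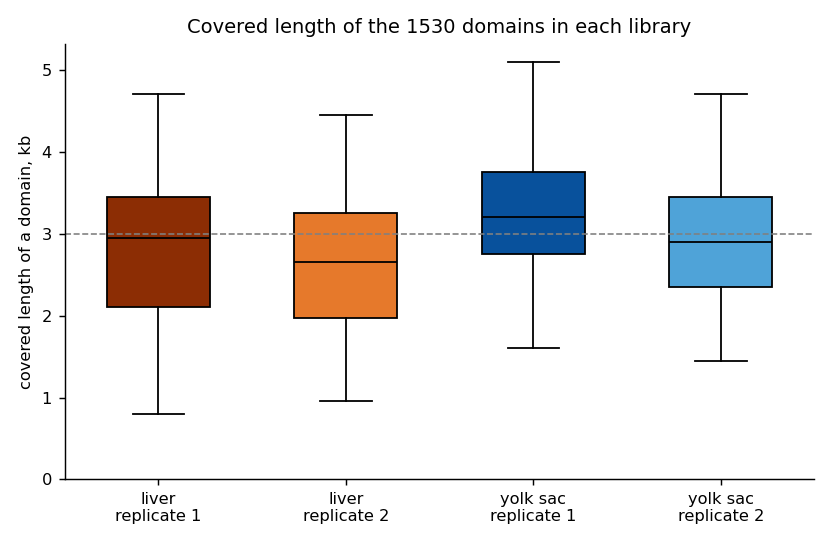
Covered length in kb of the 1530 broad domains in each of the 4 libraries. Boxes span the quartiles with the median as a line, whiskers run from the lowest to the highest 5% of domains, and the dashed line marks the 3 kb limit applied to the merged width. Medians lie between 2654 bp (liver replicate 2) and 3202 bp (yolk sac replicate 1).

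The libraries differed in how much of a domain they called. At 804 domains (52.5%) a single peak of 1 library spanned the whole merged stretch, and at the others the stretch was joined from narrower calls. A single peak of 3000 bp or more was present in each of the 4 libraries at 168 domains (11.0%). It was present in both liver libraries and no yolk sac library at 202, and in both yolk sac libraries and no liver library at 336. Over all shared promoter regions these shares were 1.70%, 2.05% and 3.41%. A narrower region cannot hold such a peak and the yolk sac lists were longer, so the split is a description. At 123 domains no library had such a peak. There was exactly 1 peak per library at 970 domains (63.4%), against 96.8% of the narrower regions. At those 970 domains the downstream edge differed between replicates by a median of 150 bp in liver and 100 bp in yolk sac, and between the tissue means by 450 bp. The upstream edge differed by 100 bp between replicates of either tissue and by 250 bp between tissues. In the narrower regions the corresponding difference between tissues was 150 bp downstream and 100 bp upstream. The reference start, the coding start used by most annotated transcripts, lay inside a peak of all 4 libraries at 1332 domains (87.1%).

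The domains were ranked by the smallest of their 4 covered lengths, which puts first those that were wide in every library. Setd1b, which encodes a histone H3 lysine 4 methyltransferase, led with 7252 and 7852 bp in liver and 9302 and 8852 bp in yolk sac. Its domain (chr5:123134651-123143952) reached 7542 bp upstream of the Setd1b start and 1759 bp into the gene. It also held starts of 3 noncoding genes, AI480526 on the opposite strand and 4932422M17Rik and Gm38102 on the same strand. Every library drew this stretch as 1 unbroken peak.

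Zmynd8, which encodes a bromodomain reader of acetylated histones, was covered over 6604 and 5906 bp in liver and 7352 and 6754 bp in yolk sac. Its region (chr2:165881851-165889652) lay almost wholly upstream of the reference start, by 7374 bp, and its annotated coding starts in the region were spread over 2596 bp. The annotated gene begins further upstream, at position 165899016 on the minus strand, so the whole region lay inside the gene. The stretch was 1 peak in yolk sac replicate 1 and was broken into 2 or 3 peaks in the other libraries. Tgif1, a homeodomain repressor that limits TGF-beta signalling, was covered over 5852 and 5752 bp in liver and 6752 and 6702 bp in yolk sac (chr17:70847701-70854452), with 6 coding starts spread over 3902 bp.

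Zfp36l1, a protein that binds AU-rich messages and promotes their decay, measured 6002 and 5752 bp in liver and 6502 and 6152 bp in yolk sac (chr12:80110451-80116952). It was unlike Tgif1 in that its 4 coding starts lay within 19 bp, and the domain extended 3939 bp upstream, past the start of the opposite-strand noncoding gene 1300014J16Rik. Id2, an inhibitor of basic helix-loop-helix factors, had 5454 and 5754 bp in liver and 6352 and 6252 bp in yolk sac. Ptch1, the Hedgehog receptor and itself a Hedgehog target, had 5654 and 5404 bp in liver and 6102 and 6002 bp in yolk sac. At both genes an upstream block and a block at the start were separate peaks in the liver lists and 1 peak in the yolk sac lists. The Ptch1 region lay wholly inside the annotated gene, which begins further upstream.

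Sin3a, the scaffold of a histone deacetylase complex, had 5354 and 6302 bp in liver and 6552 and 5904 bp in yolk sac, with 5862 of its 6602 bp downstream of the reference start. Arid2, a subunit of a chromatin remodelling complex, had 5652 and 5302 bp in liver and 5352 and 5302 bp in yolk sac. The values of the tissues overlapped at both genes. Trim8, a ubiquitin ligase, had 6052 and 5902 bp in liver and 6052 and 5252 bp in yolk sac around 1 annotated coding start. Per1, a core clock repressor, had 5554 and 5154 bp in liver and 5654 and 5304 bp in yolk sac over coding starts spread across 5305 bp. Anp32a, a nuclear acidic phosphoprotein, had 5452 and 5102 bp in liver and 6052 and 5802 bp in yolk sac. Its merged region reached 5223 bp downstream. Ehbp1l1 stood apart from the rest with 9502 and 8754 bp in liver against 6604 and 5556 bp in yolk sac (log2 difference -0.59 ± 0.13 SE, adjusted p = 0.080, limma). Its domain also holds starts of Fam89b and Sssca1, so its length cannot be given to a single gene. None of the 12 was called as different between tissues. The ranking puts domains that were short in either tissue low, so nothing is read from this. The same holds where leading members of a list, named below by this ranking, were not called.

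**Figure D2:**
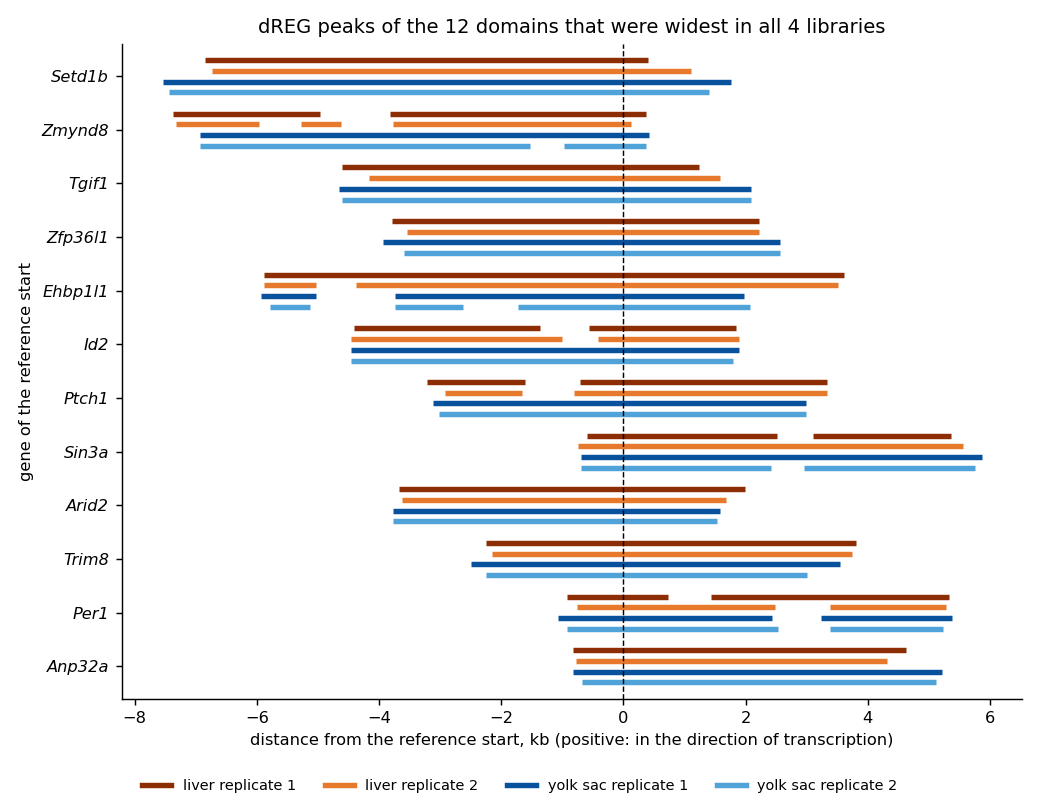
Peaks of each library at the 12 domains that were widest in all 4 libraries, as distance in kb from the reference start (dashed line), with positive values in the direction of transcription. Each bar is 1 peak and each colour 1 library. The domains of Setd1b and Zmynd8 lie mostly upstream of the start, those of Sin3a, Per1 and Anp32a mostly downstream.

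Most domains extended further into the gene than away from it, as narrower promoters did. The upstream reach from the reference start had a median of 1184 bp in the domains and 663 bp in the narrower regions, and the downstream reach 2368 and 1115 bp. The region reached further downstream than upstream at 78.0% of domains and at 81.4% of narrower regions, so both sets leaned towards the gene body. The share fell to 57.3% when distance was taken from the most downstream coding start. Alternative starts were more spread in the domains: the coding starts of the reference gene covered 1000 bp or more at 281 domains (18.4%), against 4.11% of narrower regions. Starts of at least 2 protein-coding genes on 1 strand or further apart were present at 55 domains (3.59%) and at 1.26% of narrower regions. A wider region has more room for starts, so these shares are descriptions.

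At 59 domains (3.86%) the region held the whole reference gene, against 44 narrower regions (0.53%). Ier2, an immediate early gene 1522 bp long, lay inside a domain of 6052 bp that was covered over 5402 and 5452 bp in liver and 6052 and 4856 bp in yolk sac. Gadd45g, a growth arrest and DNA damage gene 1791 bp long, lay inside 5352 bp, with 4302 and 4452 bp in liver and 5202 and 4752 bp in yolk sac. Zfp36, 3470 bp long and like Zfp36l1 a regulator of message decay, lay inside 8002 bp. Stub1, a ubiquitin ligase that works with chaperones, and Pcbp1, an RNA-binding protein without introns, lay inside 6452 and 3902 bp. At such genes the width of the call covers the gene's end as well as its promoter. The median gene length was nonetheless near that of the narrower set, at 27548.5 bp against 27119 bp, and 178 domain genes (11.6%) were under 5000 bp long, against 8.86%.

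Annotated noncoding starts and distal initiation were more frequent at domains than at narrower regions. A start of a noncoding gene on the opposite strand lay within 500 bp of 324 domains (21.2%), against 13.1% of narrower regions, and inside the region at 20.5% and 12.5%. Examples among the genes described are 2610037D02Rik at Arid2, 2700012I20Rik and Gm10658 at Sin3a, Zeb2os at Zeb2 and 5031425E22Rik at Kmt2e. A distal region, called in all 4 libraries more than 500 bp from any start of a protein-coding gene, lay within 20 kb of the edges of 457 domains (29.9%) and of 18.6% of narrower regions. For distal regions of any library the shares were 85.8% and 72.6%. The 20 kb flanks are equally long for both sets, whereas a longer region has more room for a noncoding start, and the part of length in that share was not tested.

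Sequence composition at the start did not set the domains apart by more than the spread among promoters. GC content over the first exon (at most 200 bases, read at 1346 domains) had a median of 68.1% with quartiles of 60.3% and 74.5%, and 67.0% with quartiles of 60.8% and 73.0% in narrower regions. The ratio of observed to expected CpG had medians of 0.87 in both sets (0.874 and 0.867). Both a GC content of at least 50% and a ratio of at least 0.6 were met at 77.0% of domains with a value and at 80.4% of narrower regions. The ranks of the peak scores were close. The within-list percentile of the highest-scoring peak had a median of 68.4 in liver replicate 1 for the domains and 67.2 for the narrower regions, and of 71.4 and 72.8 in yolk sac replicate 2. The score is the authors' deposited value and has no unit.

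The gene content of the domains was described with 10 lists of genes, which were written with earlier results of these data known and are given as counts with no test. The background is the 16.3% of genes with a shared promoter region that fell in a domain. Immediate early and stress response genes, which cells induce within minutes of a signal, lay at the top with 36 of 49 (73.5%, 95% Wilson interval 59.7 to 83.8). Blood cell transcription factors followed with 16 of 25 (64.0%, 44.5 to 79.8) and mesenchymal and patterning transcription factors with 13 of 22 (59.1%, 38.7 to 76.7). Endoderm and liver transcription factors gave 11 of 26 (42.3%, 25.5 to 61.1). Intervals cover counting error only, and neighbouring genes of a list, such as Hoxb7 and Hoxb8, can share a domain. These shares rest on the merged width, which can come from 1 tissue alone. A single peak of 3000 bp or more in each library was present at 168 of all 1530 domains. It was present at 2 of the 16 blood, 3 of the 13 mesenchymal and 0 of the 11 endoderm members. The immediate early count is given below.

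Signal feedback and pathway genes gave 30 of 76 (39.5%, 29.2 to 50.7), with Dusp1, Dusp6 and Hes1 also in the immediate early list. Chromatin regulators gave 37 of 105 (35.2%, 26.8 to 44.7), and splicing factors and RNA-binding proteins 22 of 78 (28.2%, 19.4 to 39.0). Constitutively active genes of the cell's core machinery lay at or below the background. Cytosolic ribosomal proteins gave 7 of 65 (10.8%, 5.32 to 20.6), the mitochondrial respiratory chain 4 of 57 (7.02%, 2.76 to 16.7) and proteasome subunits 2 of 35 (5.71%, 1.58 to 18.6). The intervals of these 3 lists include the background. A single peak of 3000 bp or more in each library was present at 6 of the 30 signal feedback members. It was present at 9 of the 37 chromatin and 3 of the 22 RNA-binding members. Of the core machinery members, 0 of 7 ribosomal, 1 of 4 respiratory chain and 0 of 2 proteasome genes held one.

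**Figure D3:**
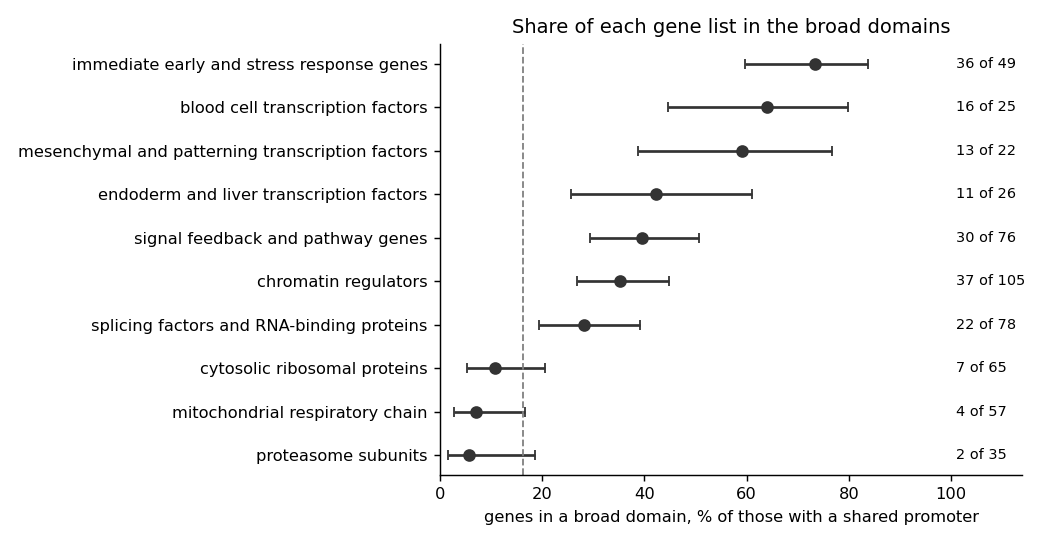
Share of each gene list found in broad domains, in percent of the list's genes with a shared promoter region. Points are shares, bars 95% Wilson intervals, numbers at the right the counts, and the dashed line the 16.3% of all such genes. The immediate early list has the highest share (36 of 49) and the proteasome list the lowest (2 of 35).

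Among immediate early genes, a single peak of 3000 bp or more in each library was present at 12 of the 36: Bhlhe40, Dusp6, Gadd45g, Id2, Ier2, Ier3, Jun, Junb, Klf10, Myc, Per1 and Zfp36l1. Jun, a subunit of the AP-1 factor, had 4152 and 4102 bp in liver and 4402 and 4152 bp in yolk sac. Myc, a regulator of growth, had 4552 and 4402 bp in liver and 4302 and 4102 bp in yolk sac. Egr1, an early growth response factor, had 2852 and 2852 bp in liver and 2902 and 2402 bp in yolk sac, so no library alone reached the limit there. None of these 3 genes was called as different between tissues.

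Of the blood cell factors, Zbtb7a, a repressor of embryonic globin genes, had 4252 and 4452 bp in liver and 4952 and 4902 bp in yolk sac. Foxo3, a stress-responsive forkhead factor, had 5152 and 5302 bp in liver and 4154 and 4154 bp in yolk sac. Runx1, which blood stem cells need to arise, had 3302 and 2704 bp in liver and 3202 and 2652 bp in yolk sac, and Zfpm1, the partner of GATA factors, 2802 and 2652 bp against 3502 and 3102 bp. None of these 4 was called as different. Of the endoderm factors, Cebpa, a hepatocyte and myeloid factor, had 3204 and 2904 bp in liver and 4502 and 4004 bp in yolk sac (log2 difference 0.48 ± 0.12 SE, adjusted p = 0.094, limma). Rxra, a partner of nuclear receptors, had 3254 and 2854 bp against 5502 and 4204 bp (0.66 ± 0.18 SE, adjusted p = 0.113, limma).

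Of the mesenchymal and patterning factors, Zeb2, a repressor of epithelial genes, had 5202 and 4104 bp in liver and 7402 and 6302 bp in yolk sac over 15 coding starts (0.56 ± 0.17 SE, adjusted p = 0.136, limma). Sox12 had 3552 and 3502 bp against 4202 and 4252 bp, Foxp1 3702 and 3452 bp against 4702 and 3552 bp, and Pbx3 3202 and 2902 bp against 3152 and 3002 bp. Among chromatin regulators after Setd1b, Kmt2e had 4952 and 3802 bp in liver and 5102 and 4404 bp in yolk sac, and Arid1b, a remodelling complex subunit, 4652 and 4352 bp against 4552 and 4402 bp. Jarid2, a cofactor of Polycomb repression, had 5052 and 3406 bp against 4354 and 4154 bp. The liver replicates of Jarid2 differed by more than the tissues did.

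Of the signal feedback genes, Spry2, an inhibitor of receptor tyrosine kinase signalling, had 4152 and 4302 bp in liver and 4002 and 4402 bp in yolk sac. Dusp6, a phosphatase that turns off the kinase ERK, had 4004 and 4602 bp against 4302 and 3652 bp. Of the RNA-binding proteins, Hnrnpl had 4454 and 4102 bp in liver and 5102 and 3852 bp in yolk sac, Ptbp1 4002 and 3552 bp against 4552 and 4452 bp, Hnrnpf 3452 and 3152 bp against 3252 and 3052 bp, and Qk 3302 and 2952 bp against 3602 and 3352 bp. None of these genes was called as different between tissues.

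Few core machinery genes lay in domains, and 3 of the named ones shared theirs with another coding gene. Rpl7 (3202 and 2902 bp in liver, 3052 and 2802 bp in yolk sac) shares its region with a start of Rdh10, and Rpl41 (2852 and 2952 bp, 3152 and 2702 bp) with a start of Zc3h10. Ndufb10, a subunit of respiratory complex I, shares its region with Rps2 and the noncoding Snhg9, and had 5252 and 3206 bp in liver and 2856 and 2154 bp in yolk sac. Rpl13a (3102 and 2552 bp in liver, 3252 and 3102 bp in yolk sac), Rps3 (3152 and 2202 bp, 2402 and 1952 bp) and Atp5g2 (4252 and 3454 bp, 3952 and 3802 bp) held starts of 1 coding gene. So did Ndufs8 (2904 and 2802 bp in liver, 3602 and 2154 bp in yolk sac) and Cox14 (2002 and 2152 bp, 3302 and 2902 bp). Ribosomal protein genes have many near-identical copies, and reads could be placed at either. Psmf1, an inhibitor of the proteasome, differed between tissues, with 4352 and 4352 bp in liver and 1452 and 1402 bp in yolk sac (log2 difference -1.61 ± 0.09 SE, adjusted p = 0.020, limma). Psmb4 had 3052 and 1352 bp in liver and 1202 and 902 bp in yolk sac, with the liver replicates far apart.

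The second comparison asked how many domains had a different covered length in liver and yolk sac. Over all 9858 shared promoter regions, 751 were wider in yolk sac (7.62%) and 267 wider in liver (2.71%) at an adjusted p of 0.05 or less (limma on log2 covered length, n = 2 against 2). Of the 1530 domains, 246 were wider in yolk sac (16.1%), 132 were wider in liver (8.63%) and 1152 were not called. These shares exceed the background, but the rule takes the merged width, which is at least that of the widest library. It therefore favours regions that are wide in a single tissue, and nothing is read from the excess. The median log2 difference, yolk sac minus liver, was 0.18 over the domains and 0.10 over all shared promoter regions. Centring each library on its median moved the median of all regions by -0.11, to -0.01, and that of the domains to 0.07. The calls among the domains then became 304 wider in yolk sac and 256 wider in liver, and those among all regions 957 and 810, so the balance of directions rests on the scale between lists. Every call at this threshold depended on all 4 libraries: with any library left out, limma called 0 domains, while between 282 and 515 were wider in yolk sac and between 188 and 271 wider in liver at an unadjusted p under 0.05. Over all 9858 regions these counts at an unadjusted p under 0.05 lay between 986 and 2262 and between 543 and 968.

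The covered length also differed between replicates of 1 tissue. The median absolute log2 difference over the domains was 0.15 in liver and 0.13 in yolk sac, and 4.38% and 0.78% of domains differed at least 2-fold. The median difference between tissues given above is signed, so it is not set against these. In the 246 domains wider in yolk sac, the median of the mean covered length was 1477 bp in liver and 3452.5 bp in yolk sac. The downstream edge lay a median of 1150 bp further out in yolk sac and the upstream edge 387.5 bp. In the 132 domains wider in liver the medians were 3814.5 bp in liver and 1577 bp in yolk sac, and the downstream reach was -1612.5 bp (yolk sac minus liver) against -225 bp upstream. The downstream side moved more than the upstream side in 179 of the 246 and in 97 of the 132. It also moved more in 705 of the 1152 domains that were not called (61.2%), against 72.8% and 73.5% of the called ones.

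**Figure D4:**
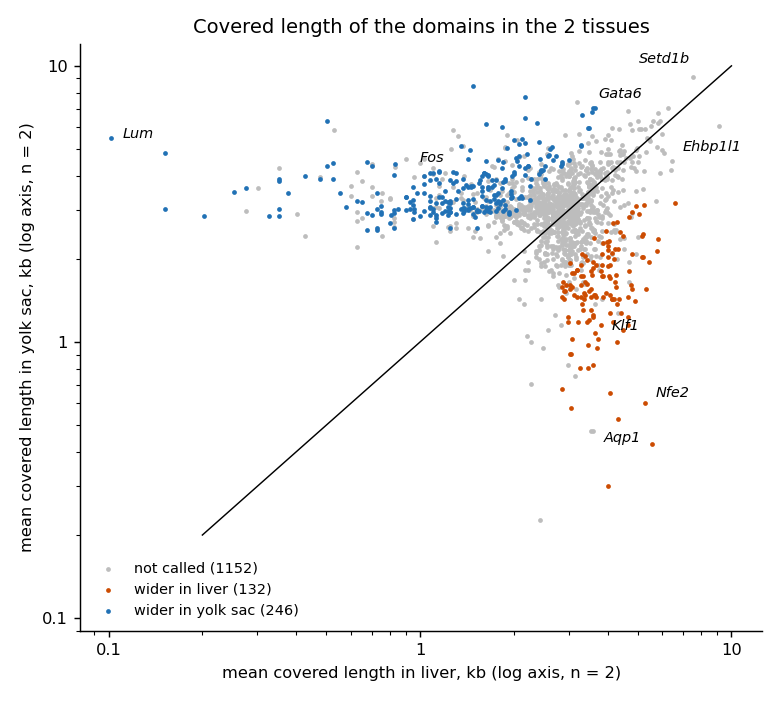
Mean covered length of each broad domain in liver and in yolk sac, in kb on log axes, with 1 point per domain (n = 2 libraries per tissue). Colours give the limma call and the diagonal marks equal length. The 246 domains wider in yolk sac include Lum at the far left, and the 132 wider in liver include Nfe2 and Aqp1 at the bottom right.

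Of the 5 largest differences in each direction, Nfe2 and Aqp1 were wider in liver and are genes of red cells, and Lum and Prelp were wider in yolk sac and are genes of the extracellular matrix. Nfe2, a transcription factor of erythroid cells and megakaryocytes, had 5352 and 5202 bp in liver and 702 and 502 bp in yolk sac (chr15:103251601-103256952, log2 difference -3.15 ± 0.20 SE, adjusted p = 0.020, limma). Aqp1, the water channel of the red cell membrane, had 4352 and 4302 bp in liver and 552 and 502 bp in yolk sac (chr6:55335751-55340102, -3.04 ± 0.10 SE, adjusted p = 0.020, limma). At both genes the start lay in a peak of every library. Lum, which encodes the collagen-binding proteoglycan lumican, had 102 and 102 bp in liver and 6152 and 4804 bp in yolk sac (chr10:97564701-97571002, 5.74 ± 0.16 SE, adjusted p = 0.020, limma). Prelp, a related matrix proteoglycan, had 754 and 252 bp in liver and 6452 and 6202 bp in yolk sac (chr1:133915851-133922302, 3.86 ± 0.59 SE, adjusted p = 0.045, limma). At Lum and Prelp no liver peak covered the start. The liver calls of Lum began 723 and 473 bp downstream of the start and did not overlap, so their equal length is not a shared position.

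At the other 6 domains with the largest differences the start likewise lay outside the peaks of the narrower tissue. Unkl had 3604 and 4402 bp in liver and 202 and 402 bp in yolk sac (-3.81 ± 0.39 SE, adjusted p = 0.027, limma). Smim5 had 6002 and 5154 bp in liver and 502 and 352 bp in yolk sac (-3.73 ± 0.22 SE, adjusted p = 0.020, limma). Clcn3, a chloride-proton exchanger of endosomes, had 4152 and 4002 bp in liver and 602 and 702 bp in yolk sac (-2.65 ± 0.12 SE, adjusted p = 0.020, limma). At these 3 genes no yolk sac peak covered the reference start.

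Tns2, a tensin of cell adhesion sites, had 102 and 202 bp in liver and 4752 and 4902 bp in yolk sac (5.07 ± 0.38 SE, adjusted p = 0.021, limma). Mtmr11 had 202 and 102 bp in liver and 3002 and 3052 bp in yolk sac (4.40 ± 0.37 SE, adjusted p = 0.023, limma), and Mamld1 102 and 302 bp against 3002 and 2702 bp (4.02 ± 0.59 SE, adjusted p = 0.042, limma). No liver peak covered the reference start of these 3 genes. At Tns2 the liver calls began 3838 and 338 bp downstream of the start and did not overlap. Over the 246 domains wider in yolk sac, the start lay in a peak of both yolk sac libraries and neither liver library at 39. Over the 132 wider in liver the reverse held at 9. The corresponding counts were 62 and 17 over all 1530 domains and 182 and 40 over the 8328 narrower regions. The calls rest on the lengths of the same peaks, so these counts are a description. A region shared by all 4 libraries could thus be a broad promoter call in 1 tissue and a short call off the start in the other. Some of these short calls lay well inside the gene, such as those of Smim5 in yolk sac, which began 3685 and 3735 bp downstream of the start.

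**Figure D5:**
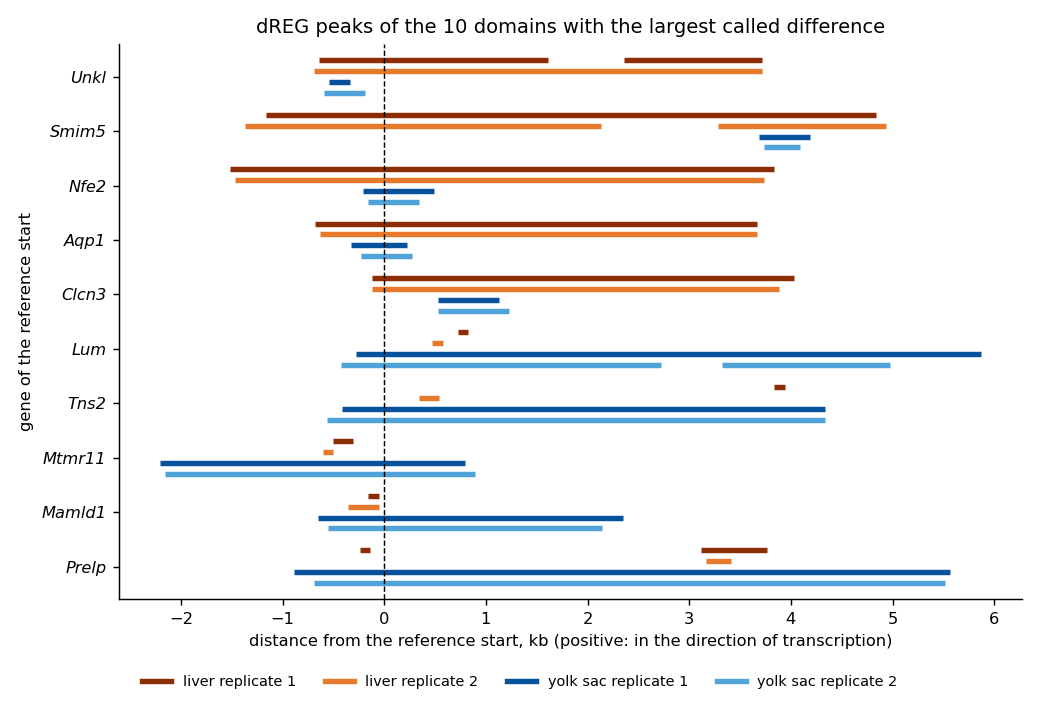
Peaks of each library at the 10 domains with the largest called difference in each direction, as distance in kb from the reference start (dashed line, positive in the direction of transcription). Each bar is 1 peak. Unkl, Smim5, Nfe2, Aqp1 and Clcn3 are longer in liver and the other 5 in yolk sac, and the start lies outside the peaks of the narrower tissue at all of them but Nfe2 and Aqp1.

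The calls between tissues within the gene lists are given beside those over all domains, of which 16.1% were wider in yolk sac and 8.63% wider in liver. Counted by gene, as the lists are, these shares were 15.8% and 8.45%. The rule admits regions that are wide in 1 tissue alone, and the lists were written with earlier results known. Nothing is therefore read from a list share that differs from that of all domains, here or in the lists that follow. Of the 16 blood cell factors in domains, 4 were wider in liver (25%, against 8.63% of all domains) and 0 wider in yolk sac (limma). Besides Nfe2 these were Klf1, the main erythroid Krüppel-like factor, with 3952 and 3652 bp in liver and 1102 and 1202 bp in yolk sac (log2 difference -1.72, adjusted p = 0.020), Tal1, a factor of blood stem cells and red cells, with 5402 and 4952 bp against 1952 and 2104 bp (-1.35, adjusted p = 0.022), and Lyl1, its relative, with 3452 and 3752 bp against 1352 and 1152 bp (-1.53, adjusted p = 0.022). Myb had 3204 and 4002 bp in liver and 754 and 202 bp in yolk sac, with an adjusted p of 0.080. The erythroid markers checked had a promoter peak, one within 500 bp of a coding start, at 7 of 8 in either liver library and at 1 of 8 in either yolk sac library. Gata1 and Alas2 had such peaks in each liver library but not in yolk sac, and Hba-a1 had none in any library. The yolk sac peaks of Klf1 began 723 and 623 bp downstream of its start and so are not counted there. Whether the number of erythroid cells moved with these lengths was not tested.

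Of the 36 immediate early genes in domains, 9 were wider in yolk sac (25%, against 16.1% of all domains) and 0 wider in liver (limma). They were Atf3, Csrnp1, Fos, Fosl2, Gadd45b, Ier5l, Nfkbia, Sgk1 and Zfp36. Fos, the partner of Jun in AP-1, had 1454 and 1154 bp in liver and 4152 and 4052 bp in yolk sac (log2 difference 1.66, adjusted p = 0.024). Atf3, a stress-induced factor, had 1502 and 1402 bp against 5102 and 4802 bp (1.77, adjusted p = 0.020). Fosl2 had 3956 and 3354 bp against 7352 and 6752 bp (0.95, adjusted p = 0.038), and Gadd45b 2454 and 2304 bp against 6152 and 6252 bp (1.38, adjusted p = 0.020). These 4 genes were picked from the called ones, so the distance between their tissues adds no support to the calls.

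Of the 11 endoderm factors, 2 were wider in yolk sac (18.2%, near the 16.1% of all domains) and 0 in liver. Gata6, a factor of the yolk sac endoderm, had 3704 and 3404 bp in liver and 6852 and 6752 bp in yolk sac (0.94 ± 0.10 SE, adjusted p = 0.027, limma), and Foxa2 1552 and 1602 bp against 3302 and 2902 bp (0.97, adjusted p = 0.030). Of the 13 mesenchymal and patterning genes, 4 were wider in yolk sac (30.8%, against 16.1% of all domains). They include Hoxb2, and also Hoxb7 and Hoxb8, whose shared domain is counted once for each gene. Hoxb2 had 252 and 402 bp in liver and 2802 and 2902 bp in yolk sac (3.16, adjusted p = 0.022, limma). Of the 30 signal feedback genes, 6 were wider in yolk sac (20%, near the share of all domains), Bambi, Bmp4, Dusp9, Gli1, Hey2 and Jag1. Bmp4, a secreted signal, had 1854 and 2404 bp in liver and 5452 and 5402 bp in yolk sac (1.36, adjusted p = 0.032, limma).

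Of the 37 chromatin regulators, 6 were wider in yolk sac (16.2%, against 16.1% of all domains), among them Brd3, Hdac5, Smarca1, Smarca2 and Smarcd1, and 0 wider in liver (limma). Of the 22 splicing and RNA-binding genes, Rbfox2 and Rbm47 were wider in yolk sac (9.09%) and Srsf1 wider in liver (4.55%), both below the shares of all domains. None of these list shares was tested. Promoter peaks at yolk sac endoderm markers were present at 5 and 2 of 7 genes in the liver libraries and at 7 of 7 in either yolk sac library, with Amn and Cubn lacking one in both liver libraries. At mesenchyme markers they were present at 2 and 4 of 5 and at 5 of 5, with Hand1 lacking one in both liver libraries. Hepatocyte markers gave 5 and 4 of 7 in liver and 5 of 7 in either yolk sac library, with Serpina1a lacking one in all 4. Fgb lacked one in both liver libraries, Afp in liver replicate 2 and Cps1 in both yolk sac libraries. Endothelial markers gave 3 and 4 of 4 in liver and 4 of 4 in either yolk sac library. The part of tissue makeup in the covered lengths was not tested.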

How the data were processed

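PRO-seq libraries from liver and yolk sac (2 each) were used as 1 dREG peak list per library. Per the submitters' processing notes the build was mm10 and Bowtie2 and bedtools were used, and the dREG version and thresholds are not given in the sources used here. The authors' deposited score per peak has no unit and was not scaled between libraries, so it only ranked or filtered peaks within a list. Replicates were listed separately, and neighbouring peaks of a list lay at least 548 bp apart.

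Peaks were merged and matched to GENCODE release M21 starts (GRCm38) in Python 3.11.15 (pandas 2.3.3, numpy 2.4.6, scipy 1.17.1). Covered length per library was compared on a log2 scale, without a pseudocount, by limma 3.58.1 (R 4.3.3; eBayes, Benjamini-Hochberg over all 9858 shared promoter regions), with the region functions and the test first tried on simulated data. At 77 regions both replicates of both tissues gave identical lengths within a tissue. Nothing states that replicates are separate litters, so p-values measure the spread between these libraries. Composition came from GENCODE transcripts, and promoter windows and motif shares from RefSeq (GRCm38.p6). RefSeq windows matched 68.8% of the domains, so no motif share over the domains is given. Noncoding genes were those typed as long noncoding or TEC.

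The domains and gene lists were chosen with earlier results of these data known. Named are the 12 domains with the largest minimum covered length, the 5 with the largest called difference in each direction, the 4 leading members of each list, and the 3 regions nearest the width limit on either side, skipping predicted and clone genes; a few genes that these rules name are not reported here. Other genes, among them Jun, Myc, Egr1, Fos, Klf1, Zfp36, Stub1 and the called members of lists, were named after their values were seen. Alternatives were other score filters, list lengths, start sets, windows, merge rules, width limits and measures of width, centring, variance models, the replicate number as a block, and leaving out each library.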

Additional observations from a re-analysis of the deposited data

How the results depend on the processing

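The number of domains (1530) was 1002 with the higher-scoring 50% of each list, 2843 and 842 at width limits of 2500 and 3500 bp, and 168 when each library had to hold a single peak of 3000 bp. It ranged from 1210 to 1510 with a library left out and from 1351 to 1576 under the other 7 alternatives. Domains wider in liver rose from 132 to 256 after centring, and the median log2 difference of the domains fell to 0.066. With a replicate left out, 0 domains were called in either direction, and the median ranged from 0.116 to 0.250. Deviations of same-numbered replicates from their tissue mean were not correlated across regions (r = -0.03 over all shared promoter regions). That correlation cannot see a shift common to all regions, and replicate 1 was the wider library in each tissue. Whether the numbers pair the samples was therefore not settled. With the replicate number as a block, limma called 0 domains wider in yolk sac and 0 wider in liver, with 489 and 286 at an unadjusted p under 0.05 (2024 and 988 of all 9858 regions). The variance trend called 345 and 185, and robust variance 289 and 153. Domains reaching further downstream than upstream (78.0%) were 57.3% from the most downstream start, and 75.8% and 74.4% from the peaks of yolk sac replicates 1 and 2 alone. No list share left its interval. Of the 10 genes with the largest differences, all kept their direction under every alternative that could be computed. All 10 lost the threshold under the block and with any replicate left out, and Prelp also did by span (adjusted p = 0.32, limma). At 5 of the 10 the equal-length lists left no peak in some library. A second way to read composition (the first 200 transcript bases, chosen after seeing the data) gave medians of 65.5% GC and 0.82 for the CpG ratio. Composition over whole regions and over 1000 bp, and the share of domains with a long CpG island-like stretch, were not run, since no genome sequence was used here. Read depth is unknown, and its part in the widths was not tested.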

Other observations

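Histone genes were among the regions that held a whole gene in both sets, with a smaller share in the domains than in the narrower regions. Of the 59 such domains, 7 were named by a replication-dependent histone gene, among them Hist1h4h, which was 470 bp long and lay inside 7002 bp, and Hist1h3a, 534 bp long inside 5052 bp. Of the 44 narrower regions that held a whole gene, 8 were histone genes. Histone genes are clustered and near-identical, so a call can span neighbours and reads could be placed at another copy. Other small genes inside domains were Apoa1, a secreted apolipoprotein of liver and yolk sac endoderm (1887 bp inside 4152 bp), Mt2, a metal-binding stress protein (905 bp inside 3052 bp), and Ifitm2 and Ifitm3, interferon-induced membrane proteins (1151 and 1185 bp inside 3902 and 3352 bp). These genes were picked after their values were seen.

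The domains were spread over the chromosomes. They made up between 13.4% (chromosome 16) and 18.7% (chromosome 11) of the shared promoter regions of each autosome. On chromosome X they were 31 of 321 (9.66%), and on chromosome Y 0 of 4.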
